A study of Sus scrofa with 3 samples.

Results

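miR-21, listed as ssc-miR-21 in the deposited counts, is the subject of this account. It was chosen by its name, which matched 1 of 411 mature miRNA names, in 1 row that pairs it with the precursor ssc-mir-21. Small RNA was sequenced from pig liver at postnatal day 90, and all animals were male. Each of 3 breeds had 1 library: the Large White pig, a commercial breed of European origin, the Enshi black pig, a domestic breed of China, and the Chinese wild boar. No treatment or genetic change is given for any of them. The labels speak of 3 male pigs and do not say whether these were 1 animal per breed, so pooling is unknown. The comparison between breeds addresses how the level of miR-21 in liver differs at the same age. No measure of liver growth or fibrosis was among the data analysed here.

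MicroRNAs are short RNAs that guide Argonaute proteins to messenger RNAs with a matching site and lower their output. miR-21 is made in most cell types from its own transcript, is induced by STAT3 and AP-1 signalling, and represses PDCD4, SMAD7 and Sprouty proteins among other targets. In liver it is known to increase during regeneration, in inflammation and in activated hepatic stellate cells, the collagen-making cells of fibrosis. In the RefSeq gene table of assembly Sscrofa11.1 the gene MIR21 lies between the protein-coding genes PTRH2 and TUBD1. The counts were made on Sscrofa10.2, so no position is given.

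miR-21 was among the 10 most abundant miRNAs of each library, and wild boar liver held the least of it. It had 315989 reads in Large White, 370617 in Enshi black and 209019 in wild boar liver. These counts were whole numbers in all 3 libraries and no other name was listed on its precursor, so no reads of miR-21 were divided with another name. The reads used summed to 7343033, 7730934 and 7824836 in the same order, so the wild boar library was the deepest and still had the fewest miR-21 reads. As a share of all miRNA reads, miR-21 made up 4.30% in Large White liver, with an exact Clopper-Pearson 95% interval of 4.29 to 4.32. The share was 4.79% in Enshi black liver (4.78 to 4.81) and 2.67% in wild boar liver (2.66 to 2.68). Thus 1 in 23.2, 1 in 20.9 and 1 in 37.4 miRNA reads were miR-21. With 1 library per breed, no difference has a replicate check and no p-value is given. Intervals cover counting error only, not the spread between animals, and they count reads, which carry no molecular identifiers.

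miR-21 ranked 4th by read count in Large White and Enshi black liver and 7th in wild boar liver. In Large White liver it stood between miR-192, a miRNA abundant in hepatocytes, at 383578 reads and miR-194a, which shares transcripts with miR-192, at 302541. In Enshi black liver it stood between miR-26a, a miRNA that restrains cell growth, at 383862 reads, and miR-192 at 268332. In wild boar liver let-7a, of the growth-restraining let-7 family, came just above it at 287062 reads. There miR-29a, a repressor of collagen genes, came just below at 200040. miR-21 reads outnumbered those of the median miRNA above the expression minimum 218-fold in Large White, 185-fold in Enshi black and 107-fold in wild boar liver. That minimum was a mean CPM (counts per 1000000 miRNA reads) of 10 over the 3 libraries, which 208 miRNAs passed. Reads of different miRNAs also depend on how well each is ligated to adaptors, so ranks order reads and not molecules.

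The order of the Large White and Enshi black libraries depended on the denominator. miR-122, the hepatocyte miRNA that leads all 3 libraries, took 41.4% of reads in Large White, 34.2% in Enshi black and 39.5% in wild boar liver. Without its reads, the share of miR-21 was 7.34%, 7.29% and 4.41% in the same order. Counts were also scaled by the trimmed mean of M-values (TMM), which takes most miRNAs to be alike in the libraries compared. On that scale the level was 57375 CPM in Large White, 38717 CPM in Enshi black and 24807 CPM in wild boar liver. Enshi black liver was thus highest by share of all reads and Large White liver highest after TMM, while wild boar liver was lowest on each of these 3 measures.

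**Figure D1:**
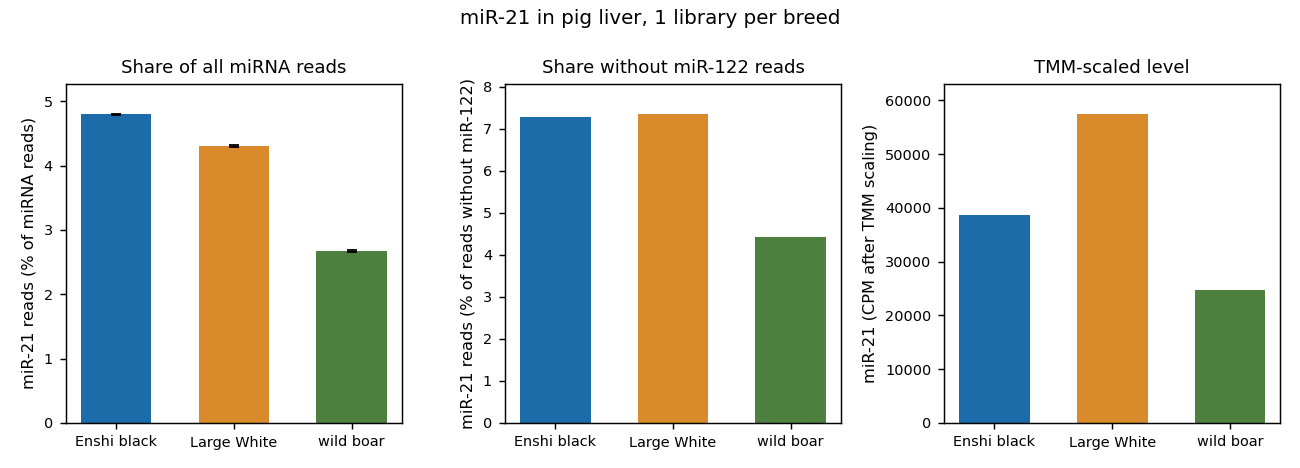
Bars show miR-21 in the 3 libraries as a share of all miRNA reads in percent (error bars: exact 95% counting intervals), as a share of reads without miR-122 in percent, and as CPM after TMM scaling. The wild boar bar is the lowest in each panel, at 2.67%, 4.41% and 24807 CPM, while the Enshi black and Large White bars change order between panels.

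Compared with Large White liver, miR-21 in wild boar liver was lower by 2.31-fold after TMM (exact conditional-binomial 95% interval 2.30 to 2.33). That is a log2 ratio of −1.21, past the 2-fold rule used here, which asks for a 2-fold difference and an interval that leaves out 1. Scaled to library totals the difference was 1.61-fold (1.60 to 1.62), a log2 ratio of −0.69, which is under 2-fold. After TMM, 32 of 208 miRNAs (15.4%) were called lower in wild boar liver in this pair and 21 (10.1%) higher. With library totals 19 (9.13%) were called lower and 45 (21.6%) higher. The call of miR-21 in this pair was 1 of many and depended on the scaling, whereas its direction did not.

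Compared with Enshi black liver, miR-21 in wild boar liver was lower by 1.56-fold after TMM (1.55 to 1.57), a log2 ratio of −0.64. With library totals it was lower by 1.79-fold (1.79 to 1.80), a log2 ratio of −0.84. Neither value passed the 2-fold rule. In this pair 13 miRNAs (6.25%) were called higher and 13 (6.25%) lower in wild boar liver after TMM, and 7 (3.37%) and 15 (7.21%) with library totals.

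Between Enshi black and Large White liver, miR-21 had no direction that held across scalings. After TMM it was 1.48-fold lower in Enshi black liver (1.47 to 1.49), a log2 ratio of −0.57. With library totals it was 1.11-fold higher there (1.11 to 1.12), a log2 ratio of 0.16. Without miR-122 in the totals the log2 ratio was −0.011. In this pair 24 miRNAs (11.5%) were called lower and 5 (2.40%) higher in Enshi black liver after TMM, and 6 (2.88%) and 57 (27.4%) with library totals. TMM moved all log2 ratios of Enshi black over Large White by −0.72. It moved those of wild boar over Large White by −0.52 and those of wild boar over Enshi black by 0.20. Over the 6 scalings computed, the log2 ratio of miR-21 ran from −0.57 to 0.16 for Enshi black over Large White. It ran from −1.21 to −0.69 for wild boar over Large White and from −0.88 to −0.64 for wild boar over Enshi black. Of these 6 scalings, 3 put wild boar over Large White past 2-fold and none did so for either other pair.

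**Figure D2:**
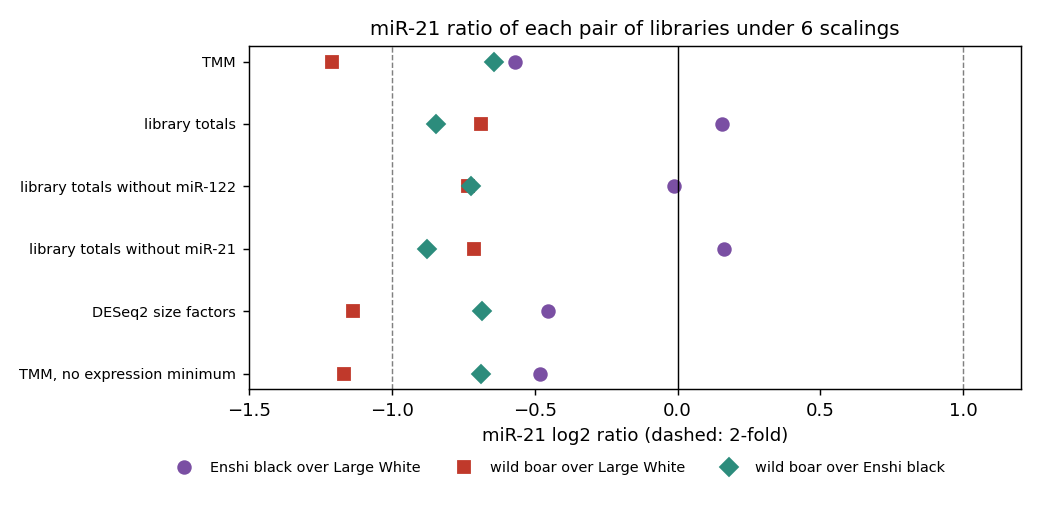
Each point is the log2 ratio of miR-21 in 1 pair of libraries (x axis) under 1 of 6 scalings (y axis), with dashed lines at 2-fold and the solid line at no difference. Both wild boar ratios lie below 0 under all 6 scalings, while Enshi black over Large White lies below 0 under 4 and above 0 under 2.

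Any scaling shifts every ratio of a pair by the same amount, so the place of miR-21 among the other miRNAs does not depend on it. In wild boar over Large White, 185 of the 207 other miRNAs above the minimum had a higher ratio than miR-21 (89.4%). In wild boar over Enshi black 184 did (88.9%), and in Enshi black over Large White 160 did (77.3%). Relative to the median of the 208 miRNAs, the log2 ratio of miR-21 stood at −1.15, −0.69 and −0.44 in the same order. The SD of the log2 ratios over the other miRNAs was 0.95, 0.70 and 0.69. Among the 66 other miRNAs with a mean of at least 1000 CPM, the shares with a higher ratio than miR-21 were 89.4%, 92.4% and 78.8%.

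**Figure D3:**
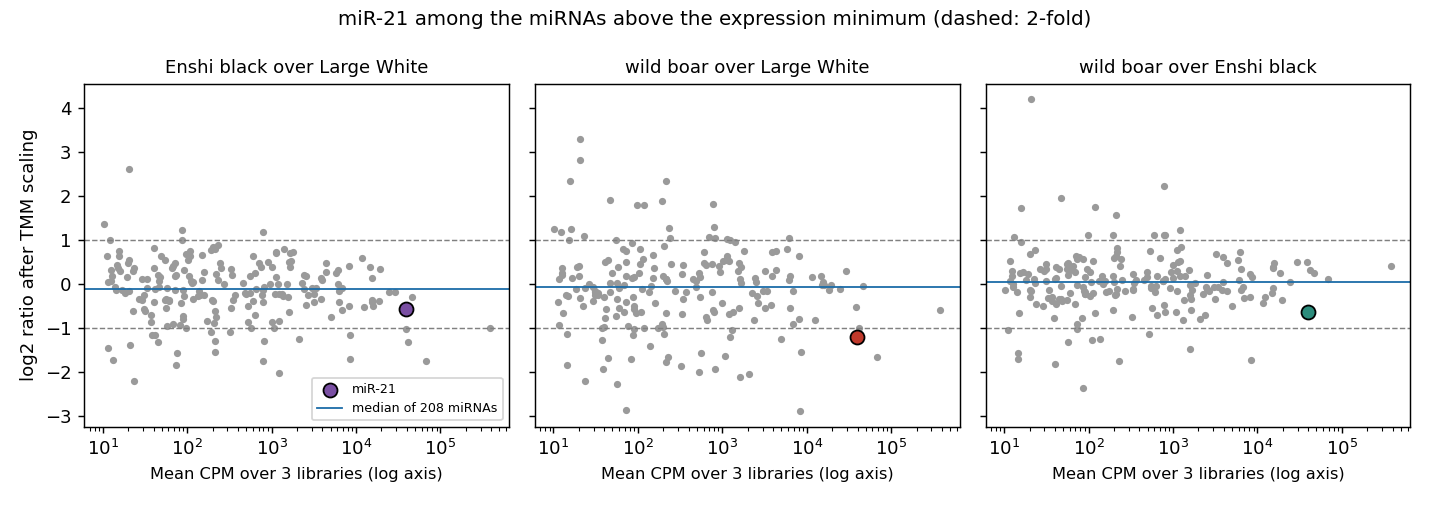
Each grey point is 1 of 208 miRNAs, with its mean CPM over the 3 libraries on a log axis (x) and its log2 ratio after TMM (y), and the large point is miR-21. miR-21 lies below the median line in all 3 pairs and below the lower 2-fold line only in wild boar over Large White.

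Ratios taken inside 1 library need no scaling between libraries. Per 100 reads of miR-122, there were 10.4 reads of miR-21 in Large White liver (interval 10.36 to 10.43), 14.0 in Enshi black liver (13.97 to 14.06) and 6.76 in wild boar liver (6.73 to 6.79). Per 100 reads of miR-192 the values were 82.4, 138 and 71.5 in the same order, and per 100 reads of miR-194a they were 104, 143 and 64.6. Against these 3 hepatocyte miRNAs, miR-21 was thus highest in Enshi black and lowest in wild boar liver. Per 100 reads of miR-26a there were 116 reads of miR-21 in Large White, 96.5 in Enshi black and 51.7 in wild boar liver. The values were 222, 169 and 104 per 100 reads of miR-29a, and 207, 159 and 72.8 per 100 reads of let-7a. Against miR-26a, miR-29a and let-7a, which many cell types make, miR-21 was highest in Large White and again lowest in wild boar liver. miR-101, another miRNA abundant in liver, gave a different order, with 41.1 reads of miR-21 per 100 in Large White, 93.8 in Enshi black and 55.9 in wild boar liver. These 7 references are the other miRNAs found in the top 10 of all 3 libraries, and 6 of them placed wild boar liver lowest.

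**Figure D4:**
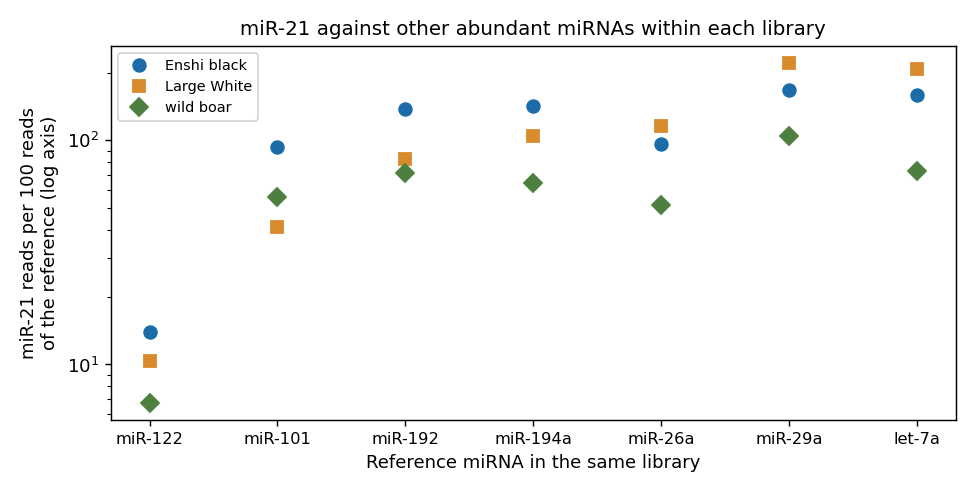
Points give miR-21 reads per 100 reads of each of 7 abundant reference miRNAs in the same library, on a log axis. The wild boar point is the lowest for all references but miR-101, where Large White liver is lowest at 41.1.

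A similar count was made over all references. It restates the place of miR-21 among the ratios given above and is not separate evidence. Of the 207 other miRNAs above the minimum, 174 (84.1%) placed wild boar liver lowest for miR-21 relative to their own reads. Large White liver was lowest against 19 and Enshi black liver against 14. Large White liver was highest against 157 references (75.8%), Enshi black liver against 38 and wild boar liver against 12.

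Other miRNAs tied to fibrosis and stellate cells stood to miR-21 much as all miRNAs did. In wild boar over Large White, 17 of the 19 members other than miR-21 had a higher ratio than miR-21, beside 185 of 207 among all miRNAs. For wild boar over Enshi black 16 of the 19 did, beside 184 of 207, and in Enshi black over Large White 16 did, beside 160 of 207. After TMM, the 19 had a median log2 ratio of 0.15 in wild boar over Large White, beside −0.06 over all 208 miRNAs. In wild boar over Enshi black the median was −0.06 beside 0.05, and in Enshi black over Large White 0.18 beside −0.12. With library totals these medians were 0.68 beside 0.46, −0.26 beside −0.15 and 0.90 beside 0.60. The list holds repressors of collagen genes beside miRNAs made by stellate cells, so its medians cannot show a shift related to fibrosis. After TMM, 7 of the 19 were lowest in wild boar liver, as miR-21 was, and with library totals 5 were. The matching count over all miRNAs was not made, so neither number sets the list apart.

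After TMM, 2 of the 19 were called higher and 1 lower in Enshi black over Large White, where 2.40% and 11.5% of all miRNAs were. There was 1 higher and 2 lower in wild boar over Large White, beside 10.1% and 15.4% of all miRNAs, and in wild boar over Enshi black none was higher and 1 lower, beside 6.25% in each direction. miR-29b, a repressor of collagen genes, stood at 4099 CPM in Large White, 1732 CPM in Enshi black and 998 CPM in wild boar liver, the same order as miR-21. Its level in Large White liver was 4.11-fold that in wild boar and 2.37-fold that in Enshi black liver, the latter under 2-fold with library totals at a log2 ratio of −0.52. miR-150, a miRNA of lymphocytes, stood at 286, 305 and 91.0 CPM in the order Large White, Enshi black and wild boar. It was lower in wild boar liver by 3.15-fold against Large White and 3.35-fold against Enshi black liver. miR-15b, which restrains the cell cycle, was instead lowest in Large White liver, at 385, 876 and 942 CPM in that order of breeds. It was 2.28-fold higher in Enshi black and 2.45-fold higher in wild boar liver than in Large White liver. miR-10b, encoded in a HOX gene cluster, was 2.001-fold higher in Enshi black than in Large White liver, at 97.4 against 48.7 CPM. With library totals, 8 of the 19 were higher and none lower in Enshi black over Large White, beside 27.4% and 2.88% of all miRNAs. On that scale 5 were higher and 2 lower in wild boar over Large White (21.6% and 9.13% of all miRNAs), and none was higher and 1 lower in wild boar over Enshi black (3.37% and 7.21%).

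The most abundant members of the list were under 2-fold in every pair after TMM. miR-29a stood at 25876 CPM in Large White, 22967 CPM in Enshi black and 23741 CPM in wild boar liver. miR-143-3p, a miRNA of smooth muscle and fibroblasts, stood at 17240, 21881 and 17015 CPM in that order, and miR-199a-5p, which stellate cells make, at 12454, 16146 and 14061 CPM. miR-19b, which lowers connective tissue growth factor, stood at 9586, 6368 and 5069 CPM, again in the order of miR-21. With library totals, miR-143-3p and miR-199a-5p were past 2-fold higher in Enshi black than in Large White liver, at log2 ratios of 1.07 and 1.10.

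**Figure D5:**
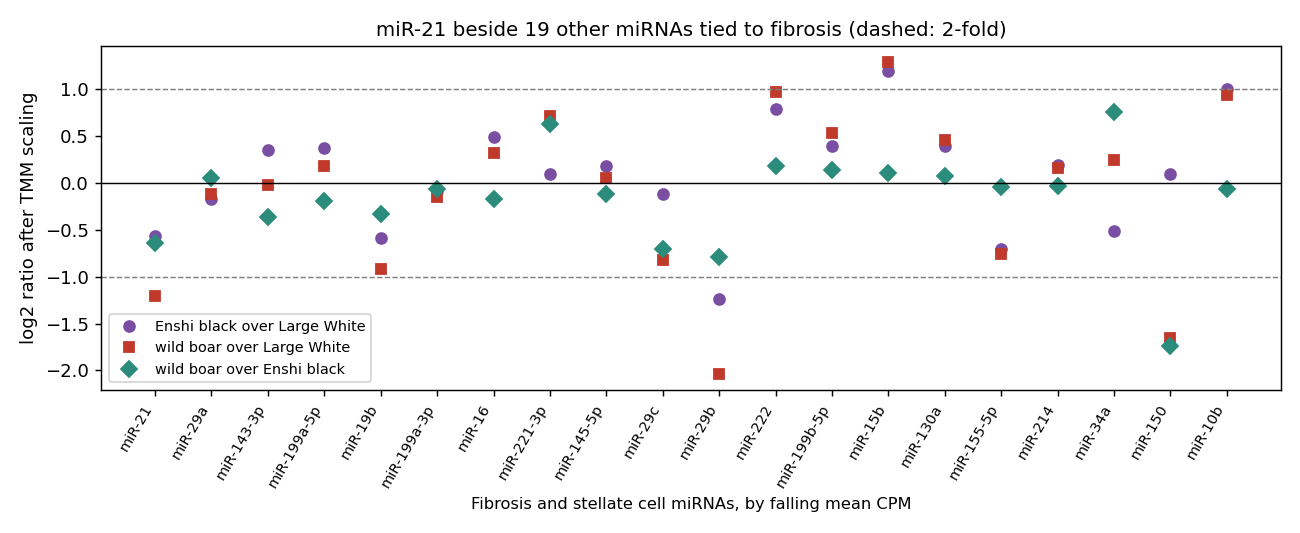
Points give the log2 ratio after TMM (y axis) of miR-21 and 19 other miRNAs tied to fibrosis and stellate cells in the 3 pairs of libraries, ordered by falling mean CPM, with dashed lines at 2-fold. miR-21 at −1.21, miR-29b at −2.04 and miR-150 at −1.65 lie below the lower line in wild boar over Large White, and miR-15b at 1.29 lies above the upper line.

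Of 20 miRNAs linked to liver growth and regeneration, 17 besides miR-21 were found and passed the minimum, and their median log2 ratios were near those of all miRNAs. After TMM these were −0.05 in wild boar over Large White beside −0.06 over all miRNAs, 0.17 beside 0.05 in wild boar over Enshi black, and −0.19 beside −0.12 in Enshi black over Large White. With library totals they were 0.48 beside 0.46, −0.03 beside −0.15 and 0.54 beside 0.60. The list holds miRNAs that promote growth and miRNAs that restrain it, so its medians cannot show a shift related to growth. After TMM 1 of the 17 was higher in wild boar over Large White (miR-127) and 2 lower (miR-19a and miR-150), beside 10.1% and 15.4% of all miRNAs. With library totals 5 were higher and 2 lower, beside 21.6% and 9.13%. In wild boar over Enshi black 1 was higher (miR-127) and 1 lower (miR-150) on both scales, beside 6.25% in each direction after TMM and 3.37% and 7.21% with library totals. In Enshi black over Large White none was higher and 1 lower (miR-19a) after TMM, beside 2.40% and 11.5%, and 3 were higher and none lower with library totals, beside 27.4% and 2.88%.

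miR-127, from the imprinted DLK1-DIO3 cluster, stood at 77.0 CPM in Large White, 133 CPM in Enshi black and 390 CPM in wild boar liver, so it was highest where miR-21 was lowest. miR-19a, of the growth-promoting miR-17-92 cluster, had the order of miR-21, with 1881, 940 and 603 CPM in the same order of breeds. Its level in Large White liver was 3.12-fold that in wild boar and 2.001-fold that in Enshi black liver. miR-122, the most abundant of the list, stood at 552014, 276264 and 366783 CPM. Its log2 ratio in Enshi black over Large White was −0.999 after TMM, just under 2-fold. Among the other abundant members, miR-26a stood at 49565, 40101 and 48007 CPM and let-7a at 27660, 24278 and 34069 CPM. Lower in abundance, let-7g stood at 10968, 7702 and 6318 CPM. None of miR-26a, let-7a and let-7g was past 2-fold in any pair, on TMM or on library totals.

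Of 9 miRNAs linked to inflammation, 6 besides miR-21 passed the minimum. Their median log2 ratio after TMM was −0.37 in wild boar over Large White, beside −0.06 over all miRNAs, and −0.04 beside 0.05 in wild boar over Enshi black. It was −0.15 beside −0.12 in Enshi black over Large White. With library totals the medians were 0.15 beside 0.46, −0.24 beside −0.15 and 0.58 beside 0.60. After TMM, 2 of the 6 (miR-146a-5p and miR-146b) were lower and none higher in both wild boar pairs, beside 15.4% of all miRNAs lower against Large White and 6.25% against Enshi black. In Enshi black over Large White 1 (miR-146b) was higher and none lower, beside 2.40% and 11.5%. With library totals 1 (miR-9) was higher and none lower in wild boar over Large White, beside 21.6% and 9.13% of all miRNAs. On that scale miR-146a-5p and miR-146b were still lower and none higher in wild boar over Enshi black, beside 7.21% and 3.37%. In Enshi black over Large White 2 (miR-146b and miR-181b) were then higher and none lower, beside 27.4% and 2.88%.

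The NF-kB induced miR-146a-5p stood at 182 CPM in Large White, 164 CPM in Enshi black and 68.8 CPM in wild boar liver, the order of miR-21. In wild boar liver it was lower by 2.65-fold against Large White and by 2.38-fold against Enshi black. Its relative miR-146b stood at 63.6, 148 and 28.5 CPM in that order of breeds and was also lowest in wild boar liver. With library totals both were under 2-fold in wild boar over Large White, at log2 ratios of −0.88 and −0.64. miR-125b, the most abundant of the list besides miR-21, had a log2 ratio of 0.01 in that pair after TMM. miR-181b had 0.47, and miR-155-5p, which activated leucocytes make, had −0.76.

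miR-21 is made by many cell types, and in whole liver a lower level per cell and fewer cells that make it cannot be told apart. Summed leucocyte miRNAs had the order of miR-21 after TMM, but not by share of reads. Of 5 leucocyte markers listed, miR-142-3p, miR-142-5p, miR-150 and miR-155-5p were found, and miR-223 matched none of the 405 names used. The 4 summed to 21245 CPM in Large White, 10392 CPM in Enshi black and 3584 CPM in wild boar liver. Most of each sum was miR-142-3p, at 17376, 7817 and 2347 CPM in that order of breeds. As a share of reads the 4 made up 1.59%, 1.29% and 0.386%. Each of the 4 was lowest in wild boar liver, and none was at 0 in any library. After TMM 3 of the 4 had the order of miR-21, while miR-150 was higher in Enshi black (305 CPM) than in Large White liver (286 CPM). The matching counts over all miRNAs were not made, so neither number sets these markers apart. The level of miR-142-3p alone was 7.40-fold higher in Large White than in wild boar liver after TMM. The summed markers differed between breeds by more than miR-21 did, since miR-21 numbered 692 reads per 100 leucocyte marker reads in wild boar liver against 270 in Large White and 373 in Enshi black liver. Their part in the difference of miR-21 was not tested.

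Of the other marker sets, the sums of red cell and striated muscle markers also had the order of miR-21 after TMM, though not every member did. The 3 red cell markers summed to 5483 CPM in Large White, 3993 CPM in Enshi black and 3116 CPM in wild boar liver, and the 3 striated muscle markers to 141, 74.9 and 44.7 CPM. Red cell miR-486, at 151, 128 and 145 CPM in that order of breeds, was instead lowest in Enshi black liver. So were the muscle markers miR-133a-3p, at 29.4, 19.1 and 20.8 CPM, and miR-206, at 5.81, 0.836 and 2.02 CPM and under the minimum. The only muscle marker with the order of miR-21 was miR-1, at 106, 54.9 and 22.0 CPM. With library totals miR-486 and miR-133a-3p were lowest in Large White liver. Their log2 ratios were then 0.48 and 0.10 in Enshi black over Large White, and 0.47 and 0.02 in wild boar over Large White. By share of reads the red cell markers were highest in Enshi black liver, at 0.411%, 0.494% and 0.336%, and the striated muscle markers made up 0.0106%, 0.00927% and 0.00482%. The 5 stellate cell and fibroblast markers summed to 39558, 47867 and 40372 CPM in that order of breeds, and none of the 5 was past 2-fold in any pair after TMM. Of all miRNAs, 2.40% to 10.1% were called higher and 6.25% to 15.4% lower after TMM, depending on the pair. As a share of reads the 5 made up 2.97%, 5.93% and 4.35%. With library totals 2 of the 5, miR-143-3p and miR-199a-5p, were past 2-fold higher in Enshi black over Large White, where 27.4% of all miRNAs were. Both arms of the endothelial miR-126 summed to 10381, 15803 and 12176 CPM, or 0.779%, 1.96% and 1.31% of reads. The 5 hepatocyte markers summed to 697581, 347505 and 458847 CPM, which is 52.3%, 43.0% and 49.4% of reads. All 5 had a higher ratio than miR-21 in both wild boar pairs, as did 89.4% of other miRNAs against Large White and 88.9% against Enshi black. miR-429 was the 1 biliary marker found of 5, at 10.7, 13.3 and 12.7 CPM. No marker found had a count of 0 in any library. The part of these cell types in the level of miR-21 was not tested.

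The 5 miRNAs nearest to miR-21 in pattern over the 3 libraries were miR-30e-5p, miR-145-3p, miR-301, miR-151-3p and miR-19b, out of 129 others with a mean of at least 100 CPM. Likeness was the Euclidean distance between log2 CPM after each miRNA was centred on its own mean, and was 0.14, 0.18, 0.18, 0.24 and 0.25 in that order. miR-30e-5p, a miRNA abundant in many tissues, stood at 7735 CPM in Large White, 4588 CPM in Enshi black and 3250 CPM in wild boar liver. miR-145-3p, the less abundant arm of a smooth muscle miRNA, stood at 262, 202 and 134 CPM in that order of breeds. The same order was found for miR-301 at 157, 124 and 78.9 CPM and for miR-151-3p at 1696, 1447 and 816 CPM. miR-30e-5p and miR-19b hold reads shared with another name, so their values depend on how those reads were divided. In all, 65 of the 208 miRNAs above the minimum hold such reads. Among these are miR-29a, miR-29b, miR-15b, miR-10b, miR-19a, miR-146a-5p, miR-146b, miR-192, miR-199a-5p and let-7a, named above. With 3 libraries many miRNAs can share an order, and the likeness describes these libraries only.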

How the data were processed

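Small RNA of 14 to 40 nucleotides from total liver RNA was sequenced as 50-base single-end reads, per the labels' protocols. The submitters' processing notes name the build Sscrofa 10.2. For the aligner and the counting tool, the sources used here give no name. Per the file headers, the deposited files give a read count per pair of mature miRNA and precursor. They are expected counts as deposited, in which the authors divided some reads between rows, since some rows hold fractions. The deposited files also give RPM, the read count per 1000000 of a file's total, used only as an alternative.

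Counts were summed per mature name, 6 names that repeated the reads of another were left out, and the sums of the 405 left were rounded. Factors for TMM were computed with edgeR 4.0.16 (R 4.3.3) over miRNAs with a mean of at least 10 CPM and on library totals, and came to 0.750 (Large White), 1.24 (Enshi black) and 1.08 (wild boar). Intervals are exact at 95% (SciPy 1.17.1). The interval and the 2-fold rule were tried on counts simulated from the Large White profile with counting error only. That setting holds no spread between animals and no TMM step, so it does not bear on either. miR-21 and the lists were chosen with earlier results of these data known. Named miRNAs were the neighbours of miR-21 in rank, the miRNAs in the top 10 of all libraries, the 4 most abundant of each list and those past 2-fold, and the 5 nearest patterns. A few other list members are named for their order or as markers, chosen after their values were seen. The rule asked for the 10 most abundant miRNAs of each library, of which miR-148a-3p and let-7c are not described singly. It also asked for miRNAs with the same seed, which were not analysed here. Alternatives were library totals with and without miR-122 or miR-21, DESeq2 1.42.0 size factors, the deposited RPM, other expression minimums, thinning, all rows kept and a 4-fold threshold.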

Additional observations from a re-analysis of the deposited data

How the results depend on the processing

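With 1 library per breed no library could be left out and no paired analysis was possible because each breed has a single library. The log2 ratio of miR-21 after TMM was −0.57 for Enshi black over Large White, −1.21 for wild boar over Large White and −0.64 for wild boar over Enshi black. In that order of pairs it became 0.16, −0.69 and −0.84 on library totals, −0.011, −0.73 and −0.72 on totals without miR-122, and 0.16, −0.71 and −0.88 on totals without miR-21. It became −0.45, −1.14 and −0.68 with DESeq2 size factors, −0.48, −1.17 and −0.69 with TMM over all miRNAs, and 0.16, −0.69 and −0.84 with the deposited RPM. Keeping all rows or thinning to the smallest total left each ratio within its counting interval. At a 4-fold threshold miR-21 was called in no pair. The direction of Enshi black over Large White thus rests on the scaling. The share of miR-21 without miR-122 was 7.34% in Large White, 7.29% in Enshi black and 4.41% in wild boar liver. With the let-7 family as 1 entry its rank was 5 in Large White, 5 in Enshi black and 7 in wild boar liver.

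The number of miRNAs called depended on the scaling and the minimum. With DESeq2 size factors it stayed near that after TMM, at 6 higher and 19 lower in Enshi black over Large White. There were then 25 and 27 in wild boar over Large White, and 13 and 13 in wild boar over Enshi black. Thinning to the smallest total also left the numbers near those after TMM. For Enshi black over Large White, 5 were higher and 24 lower after TMM, 57 and 6 on library totals, 37 and 8 on totals without miR-122, and 58 and 5 on totals without miR-21. There were 12 and 43 with no expression minimum, 1 and 15 at 100 CPM, and 1 and 2 at 4-fold. For wild boar over Large White, 21 were higher and 32 lower after TMM, 45 and 19 on library totals, 43 and 19 on totals without miR-122, and 43 and 19 on totals without miR-21. There were 34 and 52 with no minimum, 11 and 20 at 100 CPM, and 4 and 7 at 4-fold. For wild boar over Enshi black, 13 were higher and 13 lower after TMM, 7 and 15 on library totals, and 6 and 18 on totals without miR-21. There were 29 and 21 with no minimum, 8 and 6 at 100 CPM, and 2 and 1 at 4-fold. Fewer or more miRNAs enter at another minimum, so those counts must move. Depth does not limit miR-21, but the lack of replicate libraries does.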
